A study of Homo sapiens with 18 samples.

Results

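The 33 genes described here encode enzymes, regulators and carriers of nucleotide synthesis and salvage. They were chosen by symbol, as the rows of the poly(A) count table that carry one of 33 fixed names, out of 47021 genes in that table. All 33 passed the filter on low counts, as did 14732 genes in all. The list holds 13 genes of purine synthesis and its PRPP supply, 5 of pyrimidine synthesis, 7 of deoxynucleotide supply, 4 nucleotide kinases, 2 salvage enzymes and 2 carriers.

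Poly(A) RNA was counted in the established cell line DLD1, from a human colorectal adenocarcinoma, infected with lentivirus carrying the CRISPR guide sgZ1 (3 libraries) or sgZ3 (3 libraries) against the zinc-finger gene ZNF692, or the control guide sgC (3 libraries). The labels give the genotype of the sgZ1 and sgZ3 cells as a ZNF692 knockout and that of the sgC cells as wild type. All groups were grown in DMEM with fetal bovine serum and selected with puromycin at 10 µg/ml. They are stable lines made with 1 guide each, the labels do not say whether replicates came from separate cultures, and p-values therefore measure only the spread between these libraries, which may be technical.

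Purine and pyrimidine rings are built step by step onto or beside the activated ribose PRPP, and salvage enzymes recover bases and nucleosides that would otherwise be lost. Ribonucleotide reductase turns part of the ribonucleotide pool into deoxynucleotides, and thymidylate comes either from dUMP, with a folate as carbon donor, or from thymidine. Dividing cells, the epithelial tumours of the colon among them, need these pathways for RNA and DNA synthesis, and several of the enzymes are targets of antimetabolite drugs.

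Total counts ran from 16044224 to 24535642 per library. Colorectal epithelial markers were present throughout, with 10 or 11 of 12 above 1 CPM in each library (CPM, the count scaled by the TMM-adjusted library size). Their summed level was 8590 to 9440 CPM in sgZ1, 10600 to 11600 CPM in sgZ3 and 8790 to 9810 CPM in sgC. ZNF692 mRNA stood at 9.64, 9.82 and 11.5 CPM in the libraries labelled sgZ1, at 7.92, 8.08 and 6.29 CPM in those labelled sgZ3 and at 7.01, 6.32 and 6.18 CPM in sgC. It was called higher under sgZ1 (log2 fold change 0.66, SE 0.14, adjusted p = 0.0048) and over both guides (0.43, SE 0.12, adjusted p = 0.022), and did not pass under sgZ3 (0.19, SE 0.14, adjusted p = 0.32). Small insertions or deletions need not lower an mRNA, and its level does not check the labels. Of 10 fibroblast and mesenchymal markers the summed level was 114 CPM in sgZ1 replicate 2 and 117 CPM in sgZ3 replicate 3, against 9.47 to 13.7 CPM in the other 7 libraries. Leukocyte markers summed to between 4.71 and 6.55 CPM in all libraries. The 7 markers of embryonic kidney cells, the usual lentivirus packaging cells, summed to 58.5 to 63.6 CPM in sgZ1, 43.5 to 44.3 CPM in sgZ3 and 64.3 to 67.9 CPM in sgC, most of it HOXA9. Of these, PAX2 had 2.61, 1.47 and 2.96 CPM in sgZ1 and at most 0.135 CPM in any sgZ3 or sgC library.

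The sgZ1 libraries also stood apart as a group. The mismatch-repair gene MSH6, which is known to be defective in DLD1 cells, had 67.3, 69.6 and 74.8 CPM in sgZ1, 4.4, 4.45 and 8.53 CPM in sgZ3 and 6.53, 9.48 and 6.87 CPM in sgC. A difference of sgZ1 from sgC through its guide and one through its line cannot be told apart here. The same holds for sgZ3. Counts for sgZ3 against sgC, whose fold changes rest on no sgZ1 level, are given beside those over both guides. Counts are also given without sgZ1 replicate 2 and sgZ3 replicate 3.

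Over both guides, 17 of the 33 genes rose against sgC and none fell, by edgeR's quasi-likelihood test at a Benjamini-Hochberg false discovery rate under 0.05. That is 51.5% of the genes, where 18.6% of all tested genes were called higher and 14.6% lower (33.2% in either direction). The largest changes were in SLC19A1, a folate carrier, PRPS1, which makes PRPP, DCTPP1, which breaks down dCTP, and SLC29A1, a nucleoside transporter, at 2.02-fold, 2.01-fold, 1.82-fold and 1.78-fold the sgC level. The median log2 fold change of the 33 genes was 0.32, with a range of -0.14 to 1.02, against 0.0078 over all tested genes. At an unadjusted p under 0.05 the count of lower genes was also 0, and with DESeq2 it was 0 as well.

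Against sgC, 13 of 33 genes rose under sgZ1 (39.4%, with 15.5% of all tested genes called higher, 10.3% lower and 25.8% in either direction) and 18 rose under sgZ3 (54.5%, with 19.2% called higher, 17.1% lower and 36.3% in either direction). None fell under either guide, and at an unadjusted p under 0.05 or with DESeq2 none did either. The median log2 fold change of the 33 genes was 0.22 for sgZ1 and 0.39 for sgZ3, against 0.011 and -0.018 over all tested genes. The sgZ1 and sgZ3 comparisons use the same sgC libraries and are not independent of each other. In 15 genes all 6 guide libraries lay above all 3 sgC libraries, as they did in 11.9% of tested genes, and in 1 gene, PRPSAP2, they all lay below, as in 11.5%. All sgZ1 libraries lay above sgC in 16 of the 33 genes, against 23.4% of tested genes, and all sgZ3 libraries in 24, against 25.8%.

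Of the 17 calls over both guides, 9 held under each of 17 alternative settings, in CTPS1, DCTPP1, IMPDH1, PRPS1, RRM2, SLC19A1, SLC29A1, TK1 and UMPS. Under sgZ1 4 of 13 calls held in all 18 alternatives, in IMPDH1, PRPS1, SLC19A1 and SLC29A1. Under sgZ3 12 of 18 did, in those 4 and in APRT, CTPS1, DCTPP1, DTYMK, RRM2, TK1, TYMS and UMPS. The count over both guides fell to 9 without sgC replicate 1 and to 11 without sgC replicate 3. The sgZ1 count fell to 4 and 6 without those libraries and to 8 without sgZ1 replicate 2. The share of all tested genes called higher was then 8.96% and 9.54% over both guides, and 9.5%, 10.5% and 14.8% for sgZ1. The sgZ3 count fell to 12 without sgC replicate 3 and to 13 without sgZ3 replicate 1 or 2, with shares of 11.8%, 12.5% and 12.2%. With library totals in place of TMM factors the counts over both guides were 13 higher and 1 lower, the lower one being PRPSAP2. Over all tested genes, 56.0% of the calls were higher with TMM factors, 45.9% with upper-quartile factors and 36.6% with library totals. Without the 2 libraries with mesenchymal transcripts the counts of higher genes were 20 over both guides, 13 for sgZ1 and 19 for sgZ3. In that setting 1 gene, CTPS2, was lower under sgZ1. The shares of all tested genes called higher were then 23.1%, 22% and 23.9%, against 18.6%, 15.5% and 19.2% with all libraries.

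**Figure D1:**
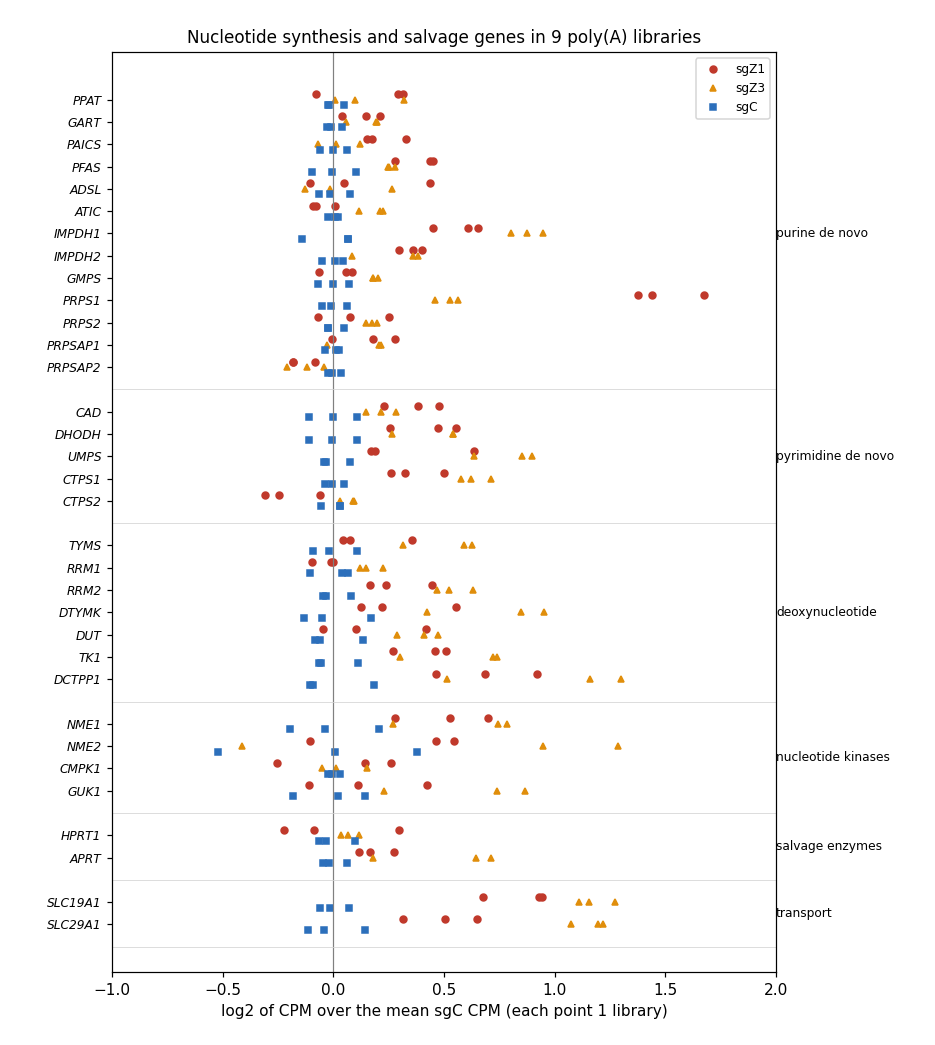
The level of each gene in each poly(A) library is plotted as log2 of its CPM over the mean sgC CPM, with genes grouped by role. Circles (sgZ1), triangles (sgZ3) and squares (sgC) are single libraries. PRPS1 lies farthest to the right in sgZ1, SLC19A1 and SLC29A1 lie right of all sgC libraries in both guides, and PRPSAP2 lies to the left.

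The promoters of 5 genes are shown, 4 that rose under each guide (PRPS1, SLC29A1, DHODH and TK1) and PPAT, which holds an E-box and passed under neither, so that their motifs can be read beside the calls. RefSeq promoter windows of 250 bases before a start were found for 31 of the 33 genes on GRCh38.p14, and not for IMPDH2 and ADSL. Capitals mark 4 motifs searched on both strands, the E-box CACGTG, which reads the same on both strands, the E2F-type motifs TTTGGCGC and TTTCCCGC, and the CCAAT box, which reads ATTGG on the other strand. No marked motifs overlapped. The windows lie at chrX:107628260-107628509 on the plus strand (PRPS1), chr6:44219365-44219614 on the plus strand (SLC29A1), chr16:72008494-72008743 on the plus strand (DHODH), chr17:78187053-78187302 on the minus strand (TK1, the second of its 2 windows) and chr4:56435616-56435865 on the minus strand (PPAT), and each is written 5′ to 3′ on the strand of its gene.
PRPS1: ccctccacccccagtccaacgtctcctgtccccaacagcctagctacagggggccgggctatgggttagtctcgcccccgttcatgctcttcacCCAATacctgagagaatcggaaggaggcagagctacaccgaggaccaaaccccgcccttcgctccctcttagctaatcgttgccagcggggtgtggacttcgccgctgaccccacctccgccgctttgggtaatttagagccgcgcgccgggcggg
SLC29A1: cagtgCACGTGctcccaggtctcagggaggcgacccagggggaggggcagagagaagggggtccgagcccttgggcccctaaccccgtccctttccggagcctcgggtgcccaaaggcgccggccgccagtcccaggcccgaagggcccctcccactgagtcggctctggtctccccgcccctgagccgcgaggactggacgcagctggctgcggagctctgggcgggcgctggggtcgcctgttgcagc
DHODH: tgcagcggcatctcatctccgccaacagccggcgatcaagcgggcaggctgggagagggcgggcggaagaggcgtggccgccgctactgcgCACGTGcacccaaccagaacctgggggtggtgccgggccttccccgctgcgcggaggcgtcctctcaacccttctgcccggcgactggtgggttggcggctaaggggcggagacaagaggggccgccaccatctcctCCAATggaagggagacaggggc
TK1: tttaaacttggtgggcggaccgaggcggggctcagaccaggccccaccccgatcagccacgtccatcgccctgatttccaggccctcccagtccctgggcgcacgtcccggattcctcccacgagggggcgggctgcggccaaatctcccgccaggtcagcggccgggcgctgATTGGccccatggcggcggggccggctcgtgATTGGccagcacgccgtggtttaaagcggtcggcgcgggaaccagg
PPAT: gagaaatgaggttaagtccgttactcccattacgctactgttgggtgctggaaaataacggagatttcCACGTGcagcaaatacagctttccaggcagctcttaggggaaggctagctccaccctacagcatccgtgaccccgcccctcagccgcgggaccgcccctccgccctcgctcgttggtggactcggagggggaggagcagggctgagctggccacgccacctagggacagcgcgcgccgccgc
PRPS1 holds 1 CCAAT box, SLC29A1 and PPAT hold 1 E-box each, DHODH holds 1 E-box and 1 CCAAT box, and TK1 holds 2 CCAAT boxes on the reverse strand. The windows shown all hold a marked motif, and the other windows of SLC29A1 and TK1 hold none. The windows precede RefSeq starts, which can lie inside the gene as GENCODE 29 annotates it. Only the PPAT window shown lies wholly before its annotated gene. The TK1 boxes and the DHODH CCAAT box lie inside the annotated genes, and the DHODH E-box lies at the annotated start. CTPS1, IMPDH1 and PFAS also rose under each guide, and no window of theirs holds a marked motif.

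An E-box lay in the windows of 5 of the 31 genes (16.1%), against 7.73% of the 27305 genes with a window. The DCTPP1 window lies wholly inside the gene as GENCODE 29 annotates it and is not shown, and without its match the count is 4. The ATIC window lies mostly inside its annotated gene, its E-box included, and is counted. Of these 5, DCTPP1, DHODH and SLC29A1 rose under each guide, while PPAT and ATIC passed the test under neither. The motif TTTCCCGC lay in DUT, PRPS2, SLC19A1 and TYMS, which is 12.9% of the 31 against 1.7% of all genes. TTTGGCGC lay in DUT and GART (6.45% against 0.681%). The DUT, GART and SLC19A1 windows that hold these E2F-type motifs lie wholly inside the annotated genes, and those of PRPS2 and TYMS partly. The shares over all genes also count windows inside genes. A CCAAT box was found in 10 of the 31 genes, 32.3% against 37.0% of all genes. The GC box GGGCGG, not marked in capitals, was found in 27, 87.1% against 46.2%. Genes with several starts have several windows, a match in any of them counted, and a match is a stretch of letters and was not tested for binding.

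PRPS1 and PRPS2 make PRPP, the ribose donor of both ring pathways and of salvage. PRPS1 (chromosome X, 107628424 to 107651026, plus strand, GRCh38) stood at 80.2, 98.6 and 83.8 CPM in sgZ1, 44.5, 42.5 and 45.6 CPM in sgZ3 and 29.8, 32.2 and 30.7 CPM in sgC (replicates 1, 2 and 3, here and below). The 3 groups did not overlap, with sgZ1 highest and sgC lowest. Its log2 fold change was 1.5 under sgZ1 (SE 0.10, Benjamini-Hochberg adjusted p = 7.2e-07, edgeR) and 0.52 under sgZ3 (SE 0.10, adjusted p = 0.003). PRPS2 stood at 168, 190 and 152 CPM in sgZ1, 183, 180 and 177 CPM in sgZ3 and 157, 165 and 157 CPM in sgC. It did not pass the test over both guides (log2 fold change 0.13, SE 0.081, adjusted p = 0.23), and its sgZ1 and sgC libraries overlapped.

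The PRPP synthetase-associated proteins PRPSAP1 and PRPSAP2 bind the synthetases and are described as negative regulators of them. PRPSAP1 stood at 53.3, 64.9 and 60.6 CPM in sgZ1, 61.7, 62.2 and 52.5 CPM in sgZ3 and 54.0, 54.4 and 52.2 CPM in sgC, and the groups overlapped. PRPSAP2 stood at 61.6, 66.1 and 61.7 CPM in sgZ1, 67.9, 64.3 and 60.5 CPM in sgZ3 and 71.6, 68.7 and 69.6 CPM in sgC. All 6 guide libraries of PRPSAP2 lay below sgC. Neither passed the test over both guides, with log2 fold changes of 0.14 (SE 0.091, adjusted p = 0.23) for PRPSAP1 and -0.14 (SE 0.075, adjusted p = 0.18) for PRPSAP2. With library totals alone PRPSAP2 passed as lower (log2 fold change -0.24, adjusted p = 0.022).

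The ring-building steps from PRPP to IMP were mostly below the threshold. PPAT, which commits PRPP to purine synthesis, GART, PAICS, ADSL and ATIC did not pass the test over both guides, with log2 fold changes between 0.065 (ATIC) and 0.17 (PPAT). PFAS, the enzyme that adds an amide nitrogen from glutamine, rose. It stood at 95.6, 85.7 and 96.7 CPM in sgZ1, 83.9, 85.7 and 84.2 CPM in sgZ3 and 66.0, 70.3 and 75.8 CPM in sgC, with both guides above sgC. Its log2 fold change over both guides was 0.32 (SE 0.080, adjusted p = 0.0097), and the call for sgZ3 alone (0.26, adjusted p = 0.042) was lost in 10 of 18 alternatives. Without sgC replicate 1 the call over both guides was lost as well (adjusted p = 0.076). PPAT and PAICS stand head to head on chromosome 4 with 125 bases between their annotated starts (GENCODE 29), and PAICS stood at 311 ± 21.5 CPM in sgZ1, 271 ± 18.1 CPM in sgZ3 and 267 ± 11 CPM in sgC (SD, n = 3 each). ADSL had only 1.69 to 2.5 CPM in any library. It shares 18.9% of its exon bases with another gene on its strand, and how shared reads were divided is not given in the sources used here.

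At the branch to guanine nucleotides both IMP dehydrogenases rose. IMPDH1 (chromosome 7, 128392277 to 128410252, minus strand) stood at 105, 121 and 117 CPM in sgZ1, 141, 148 and 134 CPM in sgZ3 and 69.6, 80.5 and 80.4 CPM in sgC. The groups did not overlap. Its log2 fold change over both guides was 0.72 (SE 0.086, adjusted p = 0.00022). IMPDH2 stood at 457, 492 and 478 CPM in sgZ1, 486, 478 and 395 CPM in sgZ3 and 360, 384 and 374 CPM in sgC. All guide libraries of IMPDH2 were above sgC, sgZ3 replicate 3 by the least, and its log2 fold change was 0.32 (SE 0.081, adjusted p = 0.012). Leaving out sgC replicate 1 or 3 ended that IMPDH2 call (adjusted p = 0.076 and 0.055). GMPS, which converts XMP to GMP, had a log2 fold change of 0.11 (SE 0.069, adjusted p = 0.24). The annotation holds 7 pseudogenes named after IMPDH1, 7 after PAICS and 8 after DUT, so reads of these genes could have been split. Some other genes of the list have fewer, RRM2 and HPRT1 with 3 each among them.

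In pyrimidine synthesis 4 of the 5 genes rose over both guides, where 18.6% of all tested genes did, and CTPS2 did not pass. Without sgC replicate 1 the CAD and DHODH calls were lost (adjusted p = 0.12 and 0.053), which left 2. CAD carries the opening steps of the pathway in 1 protein. Its level was 294 ± 25.2 CPM in sgZ1, 264 ± 12.4 CPM in sgZ3 and 228 ± 17.1 CPM in sgC (SD, n = 3 each). The CAD log2 fold change over both guides was 0.29 (SE 0.082, adjusted p = 0.019), with 0.37 for sgZ1 (adjusted p = 0.013) and 0.21 for sgZ3 (adjusted p = 0.089). The CAD call over both guides was also lost without sgC replicate 2 (adjusted p = 0.067) and with library totals (adjusted p = 0.10). DHODH, the mitochondrial enzyme that makes orotate, stood at 17.4, 21.4 and 20.2 CPM in sgZ1, 21.2, 21.2 and 17.5 CPM in sgZ3 and 14.5, 15.7 and 13.5 CPM in sgC. The guide libraries of DHODH all lay above sgC and those of the 2 guides overlapped, with a log2 fold change of 0.44 (SE 0.11, adjusted p = 0.0097) over both. Without sgC replicate 3 that call was lost as well (adjusted p = 0.066).

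UMPS, which makes UMP from orotate, stood at 80.3, 111 and 81.4 CPM in sgZ1, 133, 129 and 111 CPM in sgZ3 and 69.8, 75.2 and 69.4 CPM in sgC. All guide libraries of UMPS were above sgC, and sgZ1 replicate 2 and sgZ3 replicate 3 met at 111 CPM. Its log2 fold change was 0.57 over both guides (SE 0.11, adjusted p = 0.0034), 0.80 for sgZ3 (SE 0.13, adjusted p = 0.0012) and 0.35 for sgZ1, which did not pass (SE 0.13, adjusted p = 0.066). CTPS1, which converts UTP to CTP, stood at 66.0, 74.5 and 63.1 CPM in sgZ1, 86.4, 81.2 and 78.5 CPM in sgZ3 and 51.3, 54.4 and 52.4 CPM in sgC. Its 3 groups did not overlap, and its log2 fold change over both guides was 0.50 (SE 0.083, adjusted p = 0.0012). The paralogous synthetase CTPS2 stood at 46.2, 52.6 and 44.3 CPM in sgZ1, 55.9, 58.5 and 58.3 CPM in sgZ3 and 55.9, 55.9 and 52.7 CPM in sgC. Its sgZ1 libraries lay just below sgC, and against sgC it passed under neither guide (-0.20, adjusted p = 0.14, for sgZ1 and 0.070, adjusted p = 0.58, for sgZ3). Without sgZ1 replicate 2 CTPS2 passed as lower under sgZ1 (-0.29, adjusted p = 0.039).

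Deoxynucleotide supply had 5 of 7 genes higher over both guides and 6 of 7 higher under sgZ3, against 18.6% and 19.2% of all tested genes. The TYMS and DTYMK calls over both guides were lost without sgC replicate 1 (adjusted p = 0.096 and 0.061) or replicate 3 (adjusted p = 0.11 and 0.064), which left 3 in either case. RRM2, the small subunit of ribonucleotide reductase, stood at 572, 661 and 544 CPM in sgZ1, 751, 698 and 671 CPM in sgZ3 and 469, 513 and 474 CPM in sgC. The 3 groups did not overlap, and the log2 fold change over both guides was 0.41 (SE 0.081, adjusted p = 0.0031). For sgZ1 alone it was 0.29 (adjusted p = 0.039), a call lost in 9 of 18 alternatives. RRM1, the large subunit, stood at 502, 506 and 474 CPM in sgZ1, 561, 550 and 591 CPM in sgZ3 and 470, 520 and 530 CPM in sgC, and did not pass (0.064, SE 0.070, adjusted p = 0.50). The sgZ1 and sgC libraries of RRM1 overlapped. RRM2 shares 20.2% of its exon bases with another gene on its strand in GENCODE 29.

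TK1, the cytosolic thymidine kinase, had 608, 717 and 694 CPM in sgZ1, 843, 831 and 621 CPM in sgZ3 and 486, 545 and 483 CPM in sgC. All guide libraries of TK1 were above sgC, and its log2 fold change over both guides was 0.51 (SE 0.11, adjusted p = 0.0042). DCTPP1 (chromosome 16, 30423619 to 30430075, minus strand) had 175, 240 and 204 CPM in sgZ1, 313, 284 and 181 CPM in sgZ3 and 119, 144 and 118 CPM in sgC. Its guide libraries were also all above sgC, and sgZ3 replicate 3 fell among the sgZ1 values. The DCTPP1 log2 fold change was 0.86 over both guides (SE 0.16, adjusted p = 0.0026). It shares 42.1% of its exon bases with ZNF771 on the other strand, which had 3.24 to 11 CPM, and the strand setting of the counting is not given in the sources used here.

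TYMS, DTYMK and DUT act in sequence around thymidylate, where DUT makes dUMP, TYMS methylates it and DTYMK adds the next phosphate. TYMS had 227, 275 and 222 CPM in sgZ1, 332, 324 and 268 CPM in sgZ3 and 212, 232 and 202 CPM in sgC. DTYMK had 163, 219 and 174 CPM in sgZ1, 289, 269 and 200 CPM in sgZ3 and 144, 168 and 136 CPM in sgC. In both genes the sgZ3 libraries lay above sgC and the sgZ1 libraries overlapped sgC. Log2 fold changes for sgZ3 were 0.52 in TYMS (SE 0.11, adjusted p = 0.0051), 0.76 in DTYMK (SE 0.15, adjusted p = 0.0031) and 0.39 in DUT (SE 0.12, adjusted p = 0.025). The DUT call was lost in 6 of 18 alternatives, among them leaving out sgZ3 replicate 1 or 2 or sgC replicate 1 or 3 and library totals (adjusted p = 0.11). For sgZ1 they were 0.16, 0.31 and 0.17, and none passed (adjusted p = 0.31, 0.15 and 0.34). ENOSF1, which overlaps 39.1% of the TYMS exon bases on the other strand, had 20.9 to 27.1 CPM, and none of its 4 comparisons passed.

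Among the nucleotide kinases NME1, a nucleoside diphosphate kinase, rose under each guide. It had 94.9, 127 and 113 CPM in sgZ1, 135, 131 and 94.4 CPM in sgZ3 and 76.4, 90.3 and 68.4 CPM in sgC. The guide libraries lay above sgC, sgZ3 replicate 3 and sgZ1 replicate 1 by the least, and the log2 fold change over both guides was 0.56 (SE 0.14, adjusted p = 0.0094). Leaving out sgC replicate 1 or 3 ended this NME1 call (adjusted p = 0.056 and 0.064). Its neighbour NME2 had only 2.61, 1.76 and 2.76 CPM in sgZ1, 3.65, 4.61 and 1.42 CPM in sgZ3 and 1.9, 2.46 and 1.32 CPM in sgC, and the groups overlapped. NME1 and NME2 share 18.6% and 22.9% of their exon bases with the read-through gene NME1-NME2, which stood at 7.59, 8.51 and 8.62 CPM in sgZ1, 8.59, 7.54 and 6.90 CPM in sgZ3 and 4.43, 3.75 and 4.56 CPM in sgC. The levels of all 3 are therefore uncertain.

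GUK1, the guanylate kinase, had a log2 fold change of 0.63 under sgZ3 (SE 0.17, adjusted p = 0.013) and 0.16 under sgZ1 (SE 0.17, adjusted p = 0.52). Its level was 265 ± 49.6 CPM in sgZ1, 369 ± 80.6 CPM in sgZ3 and 238 ± 26.6 CPM in sgC (SD, n = 3 each). The GUK1 call under sgZ3 was lost in 4 of 18 alternatives. Among them were leaving out sgZ3 replicate 1 (adjusted p = 0.061) or 2 (0.055), or sgC replicate 3 (0.067). CMPK1, the UMP and CMP kinase, passed under neither guide (0.066, adjusted p = 0.73, for sgZ1 and 0.038, adjusted p = 0.83, for sgZ3). Of the salvage enzymes, APRT, which recovers adenine, rose under sgZ3 (0.52, SE 0.13, adjusted p = 0.0082) and over both guides (0.35, SE 0.11, adjusted p = 0.029). Its call over both guides ended when sgZ1 replicate 3 (adjusted p = 0.06), sgZ3 replicate 1 (0.061) or 2 (0.065), or sgC replicate 1 (0.12), 2 (0.063) or 3 (0.12) was left out. HPRT1, which recovers hypoxanthine and guanine, had 133 ± 25.8 CPM in sgZ1, 139 ± 4.13 CPM in sgZ3 and 132 ± 8.21 CPM in sgC (SD, n = 3 each) and did not pass the test.

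Both carriers rose under each guide and kept their calls in all alternatives. SLC19A1, the reduced folate carrier (chromosome 21, 45493572 to 45544411, minus strand), had 55.5, 66.7 and 66.2 CPM in sgZ1, 75.0, 77.4 and 83.8 CPM in sgZ3 and 33.3, 34.4 and 36.5 CPM in sgC. The 3 groups did not overlap, with sgZ3 highest. Its log2 fold change was 0.85 under sgZ1 (SE 0.10, adjusted p = 8.1e-05) and 1.18 under sgZ3 (SE 0.10, adjusted p = 7.9e-05). COL18A1, on the other strand of 14.0% of its exon bases, had 11, 14.3 and 13.4 CPM in sgZ1, 1.22, 1.41 and 9.84 CPM in sgZ3 and 1.46, 0.964 and 1.02 CPM in sgC. COL18A1 was thus near its sgC level in sgZ3 replicates 1 and 2 and higher in the other guide libraries, and its part in the SLC19A1 counts was not tested.

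SLC29A1, an equilibrative nucleoside transporter of the plasma membrane (chromosome 6, 44219505 to 44234151, plus strand), had 187, 236 and 213 CPM in sgZ1, 344, 350 and 316 CPM in sgZ3 and 139, 166 and 146 CPM in sgC. Its groups did not overlap either, and sgZ3 was again the highest. The log2 fold change was 0.50 under sgZ1 (SE 0.11, adjusted p = 0.0047) and 1.17 under sgZ3 (SE 0.11, adjusted p = 8.1e-05), a level 1.41-fold and 2.24-fold that of sgC.

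**Figure D2:**
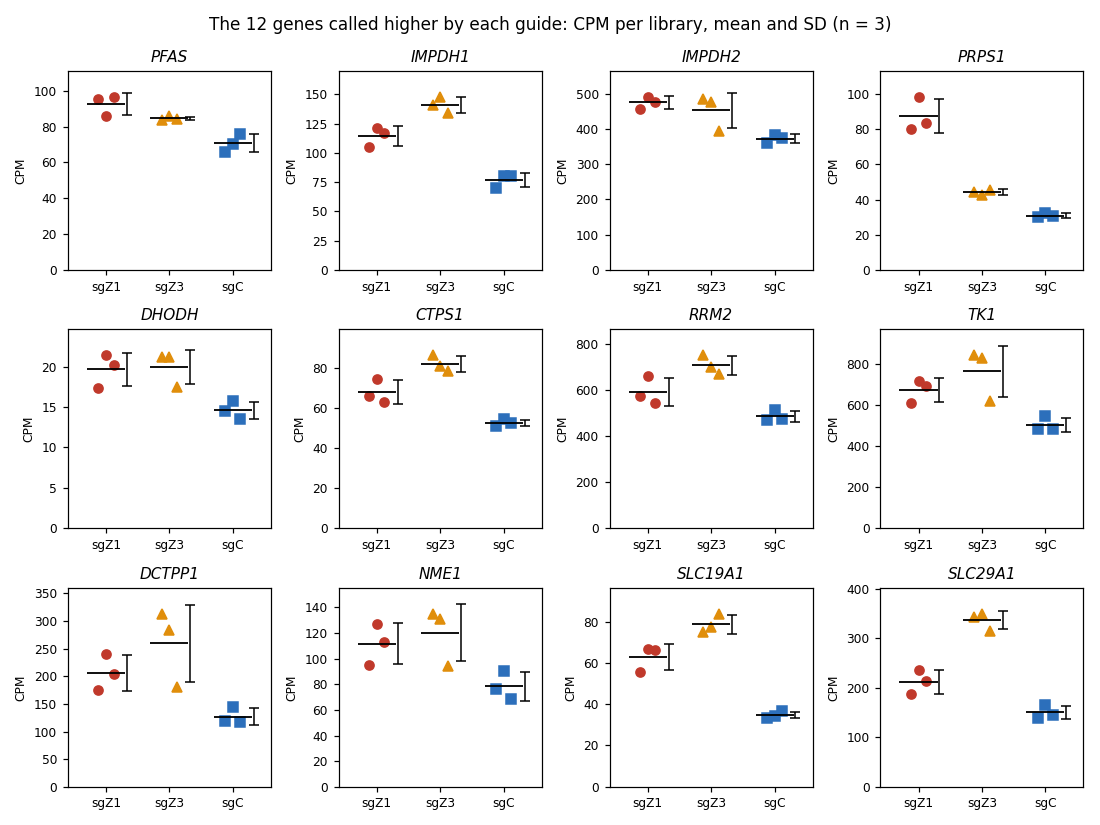
CPM per library is shown for the 12 genes that rose under each guide, with the group mean (line) and SD (bar, n = 3) for sgZ1, sgZ3 and sgC from left to right. All vertical axes start at 0. In each of the 12 panels all guide libraries lie above the sgC libraries, and in PRPS1 sgZ1 stands above sgZ3.

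Tested directly, 9 of the 33 genes were higher in sgZ3 than in sgZ1 (12.8% of all tested genes) and 1 was lower (15.8%, and 28.6% in either direction). The lower one was PRPS1, at 44.2 ± 1.61 CPM in sgZ3 and 87.5 ± 9.74 CPM in sgZ1 (SD, n = 3 each), a log2 difference of -0.99 (SE 0.10, adjusted p = 2.2e-05, edgeR). The highest was SLC29A1, at 337 ± 17.9 CPM in sgZ3 and 212 ± 24.7 CPM in sgZ1, a log2 difference of 0.67 (SE 0.11, adjusted p = 0.00070). The other 8 were UMPS, DTYMK, TYMS, SLC19A1, IMPDH1, CTPS1, CTPS2 and ATIC, with differences from 0.45 (SE 0.13, adjusted p = 0.021) in UMPS to 0.24 (SE 0.077, adjusted p = 0.035) in ATIC. ATIC, the enzyme of the closing steps to IMP, had 361, 364 and 338 CPM in sgZ3, 292, 313 and 295 CPM in sgZ1 and 306, 313 and 316 CPM in sgC, so that sgZ3 stood above the other groups.

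PRPS1 and SLC29A1 differed between the guides in all 18 alternatives, and each of the other 8 calls was lost in at least 5. The count of genes higher in sgZ3 was 1 without sgZ1 replicate 1, 2 without sgZ1 replicate 3, 1 without sgZ3 replicate 1, 1 without sgZ3 replicate 2, 14 without sgZ3 replicate 3 and 4 without any 1 sgC library. It was 3 with upper-quartile factors and 2 with library totals, where 2 genes were lower. Without sgZ1 replicate 2 and sgZ3 replicate 3 together it was 17, with 3 lower. Of all tested genes 23.2% were then called higher, and 6.88% to 19.1% without each library in turn, against 12.8% with all libraries.

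**Figure D3:**
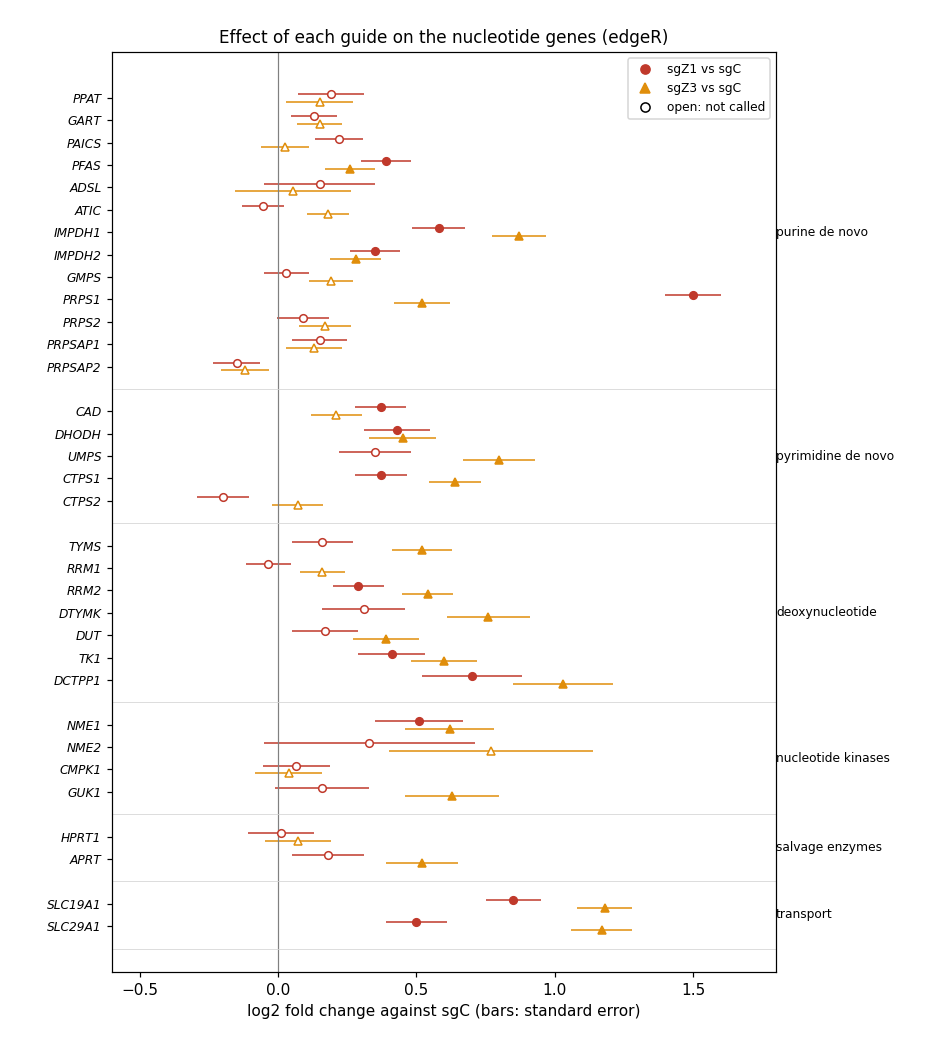
The log2 fold change against sgC is shown for each gene under sgZ1 (circles) and sgZ3 (triangles), with standard errors as bars and filled symbols for genes called at a false discovery rate under 0.05. PRPS1 is at 1.5 in sgZ1 and 0.52 in sgZ3, and SLC29A1 is at 0.50 in sgZ1 and 1.17 in sgZ3. Both comparisons share the sgC libraries.

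Ratios of partner genes within a library do not depend on the scaling between libraries. Of 8 ratios, 7 were higher in the 6 guide libraries than in the 3 sgC libraries without overlap. Each had p = 0.0238 by a two-sided exact permutation test (the smallest p that 6 against 3 libraries allow). After Benjamini-Hochberg adjustment over the 8 it was 0.0272. The numerators PRPS1, IMPDH1, CTPS1, RRM2 and TK1 were called higher on their own, so their ratios are not separate results. All guide libraries lay above sgC in 11.9% of single tested genes, and the share over other gene pairs was not measured. The log2 ratio of PRPS1 over PRPS2 was -0.96 ± 0.11 in sgZ1, -2.03 ± 0.066 in sgZ3 and -2.37 ± 0.024 in sgC (SD, n = 3 each), so PRPS2 had more counts than PRPS1 in every library. The mean over both guides was 0.88 above sgC.

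For CTPS1 over CTPS2 the log2 ratio was 0.51 ± 0.0061 in sgZ1, 0.51 ± 0.10 in sgZ3 and -0.058 ± 0.058 in sgC, a difference of 0.57 under each guide. CTPS1 counts thus exceeded CTPS2 counts in all guide libraries and were below them in all sgC libraries. IMPDH1 over IMPDH2 differed by 0.41 and PRPSAP1 over PRPSAP2 by 0.28. RRM2 over RRM1 differed by 0.35. RRM2 over RRM2B, the small subunit induced by p53, differed by 0.71. RRM2B itself had 95, 92.6 and 70.6 CPM in sgZ1, 66.5, 65.2 and 74.4 CPM in sgZ3 and 93.5, 95.3 and 93.2 CPM in sgC. It fell over both guides (log2 fold change -0.29, SE 0.099, adjusted p = 0.041), with its sgZ1 libraries overlapping sgC. TK1 over TK2, the mitochondrial thymidine kinase, also differed by 0.71. TK2 had 12.9, 11.9 and 13.6 CPM in sgZ1, 12.3, 12.5 and 10.8 CPM in sgZ3 and 14, 14 and 14.6 CPM in sgC, and did not pass the test (-0.21, SE 0.097, adjusted p = 0.11). NME1 over NME2 overlapped between the groups (difference 0.062, p = 0.881, two-sided exact permutation test).

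**Figure D4:**
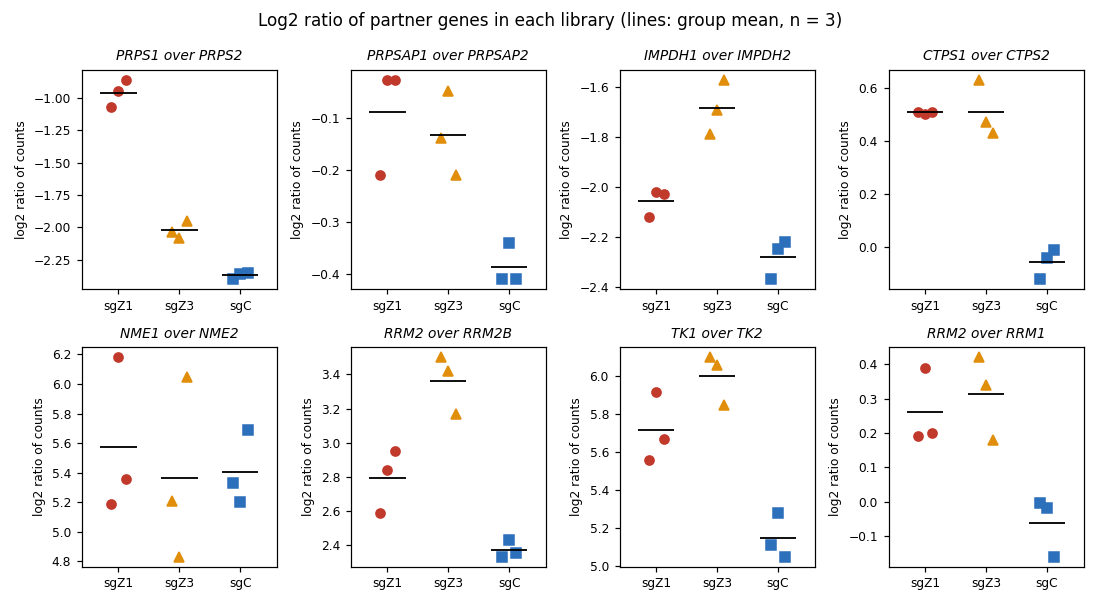
The log2 ratio of counts of 8 gene pairs is plotted per library, with the group mean as a line (n = 3), for sgZ1, sgZ3 and sgC from left to right. The vertical axes differ between panels and do not start at 0. All panels but NME1 over NME2 have the sgC libraries below all guide libraries.

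Levels between genes were compared as CPM per kilobase of exon in GENCODE 29. The length counts all annotated exon bases of a gene, such as 11517 in CTPS1, 9998 in SLC19A1 and 6921 in DHODH. It can exceed the transcripts in use and so understate a level. In sgC the highest was TK1 at 271 ± 18.8, followed by IMPDH2 at 134 ± 4.35 and RRM1 at 121 ± 7.70, and the median of the 33 genes was 34.1 (SD over 3 libraries). RRM2 and TYMS overlapped in sgC, at 88.1 to 96.4 and 81.8 to 93.9, as did HPRT1, DCTPP1 and ATIC, at 77.6 to 86.8, 74.6 to 91.1 and 77.9 to 80.4. Near the low end were CTPS1 at 4.58 ± 0.136, SLC19A1 at 3.47 ± 0.163 and DHODH at 2.10 ± 0.159, and lowest were NME2 and ADSL, at 0.719 ± 0.217 and 0.260 ± 0.0129, whose counts are uncertain as given above. Under the guides PRPS1 had 33.4 ± 3.72 in sgZ1 and 16.9 ± 0.599 in sgZ3, against 11.8 ± 0.462 in sgC, and stayed below PRPS2, at 61.6 ± 6.92, 65.3 ± 1.09 and 57.9 ± 1.67.

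Other genes of the same pathways form a list of 82 that leaves out the 33. Of 71 tested, 19 rose over both guides (26.8%, against 18.6% of all tested genes) and 11 fell (15.5%, against 14.6%, a share near the background), with a median log2 fold change of 0.12. The highest by fold change after TYMP were SLC25A32, the mitochondrial folate carrier, NT5C3B, a nucleotidase, and SLC46A1, the proton-coupled folate transporter, with log2 fold changes of 0.86 (SE 0.11), 0.75 (SE 0.11) and 0.69 (SE 0.11) and adjusted p = 0.00038, 0.00080 and 0.00094. TYMP, the thymidine phosphorylase, had 5.45, 5.57 and 6.55 CPM in sgZ1, 0, 0.108 and 0.254 CPM in sgZ3 and 0.0487, 0 and 0 CPM in sgC, where all 3 sgC libraries together held 1 count. It was thus measured above 1 CPM in sgZ1 alone.

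The lowest were XDH, xanthine dehydrogenase (-0.91, SE 0.15, adjusted p = 0.0011), SLC28A3, a concentrative nucleoside transporter (-0.84, SE 0.19, adjusted p = 0.0073), SLC25A36, a mitochondrial pyrimidine nucleotide carrier (-0.59, SE 0.10, adjusted p = 0.0015), and FOLR1, a folate receptor (-0.52, SE 0.15, adjusted p = 0.022). The FOLR1 call was lost when sgC replicate 1, 2 or 3 was left out (adjusted p = 0.12, 0.056 and 0.06). XDH had 1.77, 1.68 and 1.63 CPM in sgZ1, 1.69, 1.52 and 1.78 CPM in sgZ3 and 3.51, 2.84 and 3.11 CPM in sgC, without overlap. FOLR1 was called lower under sgZ1 (-0.93, SE 0.18, adjusted p = 0.003) and not under sgZ3 (-0.11, SE 0.18, adjusted p = 0.65), and was higher in sgZ3 than in sgZ1 by 0.82 (SE 0.18, adjusted p = 0.0061). In the folate cycle 2 of 17 tested genes rose over both guides, SLC25A32 and SLC46A1, and 3 fell, FOLR1 and MTHFD2 among them. That is 11.8% and 17.6%, near the shares over all tested genes. MTHFD2, a mitochondrial folate enzyme named after its values were seen, had 519, 493 and 456 CPM in sgZ1, 312, 281 and 275 CPM in sgZ3 and 545, 540 and 504 CPM in sgC. It was called lower under sgZ3 (-0.87, SE 0.087, adjusted p = 0.00013) and did not pass under sgZ1 (-0.11, SE 0.086, adjusted p = 0.36), with a difference of sgZ3 from sgZ1 of -0.76 (SE 0.087, adjusted p = 5.6e-05).

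Transcripts of S-phase replication and of MYC are given beside these values. Of 40 S-phase replication genes outside the list, 30 rose over both guides (75.0%, against 18.6% of all tested genes), with a median log2 fold change of 0.51, and their summed level was 5350 to 5900 CPM in sgZ1, 5660 to 6290 CPM in sgZ3 and 3720 to 4260 CPM in sgC. MYC stood at 211, 170 and 236 CPM in sgZ1, 106, 104 and 125 CPM in sgZ3 and 102, 102 and 111 CPM in sgC. It rose under sgZ1 (log2 fold change 0.97, SE 0.12, adjusted p = 0.00014) and did not pass under sgZ3 (0.083, SE 0.12, adjusted p = 0.62), and the difference of sgZ3 from sgZ1 was -0.88 (SE 0.12, adjusted p = 0.00027). Of 12 genes of the MYC network 2 rose and 3 fell over both guides (16.7% and 25%, against 18.6% and 14.6% of all tested genes). The part of either in the nucleotide gene values was not tested.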

How the data were processed

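Whole-number read counts per gene, not normalized, were deposited by the authors for 9 poly(A) libraries of DLD1 cells. The submitters' processing notes name the tools STAR 2.5.2b, HTSeq, DESeq2 and SAMtools 1.9, and GRCh38 (hg38) as the build. Which annotation release and strand setting they used is not given in the sources used here. The ribosomal RNA libraries were not used here. Groups came from the sample titles. The description of 1 control library points to the ribosomal RNA table, but it was kept as poly(A) by its title and molecule label.

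The count model was edgeR 4.0.16 (R 4.3.3), with filterByExpr, TMM factors and a robust quasi-likelihood fit of the group means of all 9 libraries. Log2 fold changes, standard errors (the fold change over the root of F) and Benjamini-Hochberg adjusted p-values over all 14732 tested genes came from this fit, and a call means a false discovery rate under 0.05. The biological coefficient of variation was 12.7%. There were 4 contrasts, in which sgC was set against the mean of both guides, against sgZ1 and against sgZ3, and sgZ3 was set against sgZ1. CPM values use TMM-scaled library sizes. Isozyme ratios were tested with SciPy 1.17.1. Gene positions and exon lengths are from GENCODE 29 and promoters from RefSeq (GRCh38.p14).

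The genes and lists were chosen with earlier results of these data known. Library values are given for genes called alike by each guide, called lower, called between guides, or in an isozyme pair. Of the other pathway genes, the 4 highest and 4 lowest calls are named. One other pathway gene is not reported here by name. On simulated counts for both guides against sgC over 14501 genes, 67, 67 and 66 genes were changed 1.5-fold, 2-fold and 4-fold. The test recovered 50.7%, 85.1% and 92.4% of them, and 9 of its 161 calls were false. In the data 4885 genes were called, so the adjusted threshold was harder to pass in the simulation. These shares may therefore not hold for the data. No replicate pair was within sampling noise of being 1 library (chi-square per gene 4.06 to 32.3). The alternatives were library totals alone, upper-quartile or RLE factors, DESeq2 1.42.0, no filter on low counts, the replicate number as a block, the compared groups only, a false discovery rate under 0.01, each library left out, and the 2 libraries with VIM left out. For the ratios, 1 count was added to each gene as an alternative.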

Additional observations from a re-analysis of the deposited data

Results flagged for a closer look

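The effects of the 2 guides against sgC differed in 10 of the 33 genes by the test of sgZ3 against sgZ1 (edgeR, Benjamini-Hochberg adjusted). PRPS1 was lower in sgZ3, with a log2 difference of -0.99, and SLC29A1 was higher, with 0.67. These were the only 2 of the 10 whose difference passed in all 18 alternatives. The log2 difference was 0.45 in UMPS, 0.44 in DTYMK, 0.35 in TYMS, 0.33 in SLC19A1 and 0.30 in IMPDH1. It was 0.27 in both CTPS1 and CTPS2 and 0.24 in ATIC. In SLC29A1, UMPS, DTYMK, TYMS, IMPDH1, CTPS1 and ATIC the lowest sgZ3 library was replicate 3 and the highest sgZ1 library was replicate 2. In PRPS1, SLC19A1 and CTPS2 this was not so. These are the same 2 libraries that hold mesenchymal transcripts (VIM at 21.2 CPM in sgZ3 replicate 3 and 22.9 CPM in sgZ1 replicate 2). The part of those transcripts in the differences was not tested. Without both libraries the count of genes higher in sgZ3 was 17. Of all tested genes 23.2% were then called higher, against 12.8% with all libraries.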

How the results depend on the processing

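No value changed direction past the threshold under any alternative. Over both guides the higher count was 17 with RLE and upper-quartile factors, 13 with library totals, 12 at a false discovery rate under 0.01, and 19 with DESeq2 or no filter. The shares of all tested genes called higher were 18.7%, 15.4%, 12.8%, 9.56%, 19.6% and 10.5% in that order. At the stricter rate the count was 5 for sgZ1 and 12 for sgZ3, with shares of 9.46% and 10.9%. Without each library in turn the count was 9 to 20 over both guides and 4 to 14 for sgZ1, with 0 to 1 lower. The shares called higher then ran from 8.96% to 22% and from 9.5% to 18.8%. For sgZ3 the count was 12 to 20 with none lower, and the shares ran from 11.7% to 22.6%. With library totals the sgZ3 count of higher genes was 14, with a share of 11.8%. Between the guides 1 to 14 were higher and 1 to 2 lower without each library in turn, 3 were higher with upper-quartile factors, 2 higher and 2 lower with library totals, 2 higher with the compared groups only and 1 higher at the stricter rate. With library totals 1 gene was lower over both guides and 1 for sgZ3. Without both libraries with VIM, 17 were higher and 3 lower between the guides, and 1 was lower for sgZ1. The share of all tested genes called higher between the guides was then 23.2%. It was 6.88% to 19.1% without each library in turn. Of the other pathway genes 5 fell at the stricter rate, 5 to 14 without each library in turn and 17 without both libraries with VIM. The cause of these shifts was not tested.

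Library totals moved the median log2 fold change of all tested genes to -0.09 over both guides, -0.17 for sgZ3 and -0.12 for sgZ3 against sgZ1, where the medians of the 33 genes were 0.22, 0.24 and 0.07. Of all calls for sgZ3 52.9% were higher with TMM factors, 41.5% with upper-quartile factors and 29.6% with library totals. Between the guides these shares were 44.7%, 37.7% and 27.0%.

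The number of ratios past the threshold was 0 to 7 without each library in turn and 0 without both libraries with VIM, because the smallest exact p is then 0.0714 (without an sgC library) or 0.0571. With the replicate number as a block the higher counts were 19, 14 and 18 over both guides, for sgZ1 and for sgZ3, and 12 were higher and 1 lower between the guides. Of all tested genes 20.2%, 16.9%, 20.8% and 15.4% were then called higher in these comparisons. Deviations of same-numbered libraries correlated at -0.12 to 0.25, and those of differently numbered libraries at -0.26 to 0.2. Same-numbered pairs were all positive between a guide and sgC (0.0032 to 0.25) and all negative between the 2 guides (-0.12 to -0.004). The titles give only a number, and whether same-numbered libraries share a batch was not tested.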

Other observations

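Other salvage and breakdown genes outside the naming rule also passed the test over both guides, and those given here were chosen after their values were seen. PNP, which splits purine nucleosides for salvage, had 63.6, 91.0 and 72.9 CPM in sgZ1, 129, 116 and 98.1 CPM in sgZ3 and 59.9, 66.2 and 57.7 CPM in sgC. Its sgZ3 libraries lay above all others, and it passed for sgZ3 (log2 fold change 0.90, SE 0.14, adjusted p = 0.00092, edgeR) and not for sgZ1 (0.31, SE 0.14, adjusted p = 0.12), with a difference between the guides of 0.59 (SE 0.14, adjusted p = 0.0078). UCK2, a uridine and cytidine kinase, had 60.0, 59.6 and 65.0 CPM in sgZ1, 62.7, 64.3 and 55.8 CPM in sgZ3 and 42.6, 45.1 and 42.0 CPM in sgC, without overlap between the guides and sgC. Its log2 fold change was 0.51 under sgZ1 (SE 0.093, adjusted p = 0.0018) and 0.50 under sgZ3 (SE 0.093, adjusted p = 0.0024).

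GDA, the guanine deaminase, was lower under both guides. It had 167, 162 and 139 CPM in sgZ1, 163, 169 and 188 CPM in sgZ3 and 228, 213 and 221 CPM in sgC, with log2 fold changes of -0.50 under sgZ1 (SE 0.095, adjusted p = 0.0025, edgeR) and -0.35 under sgZ3 (SE 0.095, adjusted p = 0.015). NT5E, the ecto-nucleotidase that releases adenosine, had 125, 113 and 115 CPM in sgZ1, 159, 149 and 188 CPM in sgZ3 and 184, 156 and 169 CPM in sgC. It was lower under sgZ1 (-0.53, SE 0.11, adjusted p = 0.0033) and did not pass under sgZ3 (-0.041, SE 0.11, adjusted p = 0.78), and the difference of sgZ3 from sgZ1 was 0.49 (SE 0.11, adjusted p = 0.0050).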
